A study of Ovis aries with 20 samples.

Results

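The goblet cell mucus genes are 10 genes taken by their symbol from the gene count tables of WT and CF sheep trachea: the transcription factors SPDEF and FOXA3, the folding enzyme AGR2, the glycosyltransferases GALNT6 and GALNT12, the secreted mucus proteins FCGBP, CLCA1, ITLN and TFF3, and the membrane mucin MUC1. All 10 were among the 24478 genes of the tables, and all 10 passed the filter on low counts that left 20097 genes for testing. RNA was sequenced from frozen sheep trachea that the labels call epithelial tissue, at days 65, 80, 100, 120 and 147, the last of these 5 ages being birth. WT samples came from animals the labels call healthy donors and CF samples from CF donors; cystic fibrosis is the disease caused by loss of the epithelial anion channel CFTR, and the labels used here name neither the CFTR allele nor a breed. Each of the 10 groups of genotype and age had 2 libraries, 20 in all. The questions were when each gene came on and whether its level in CF differed from that in WT.

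Goblet cells are the secretory cells of the airway surface that make gel-forming mucins and store them in granules. SPDEF, an ETS factor, and FOXA3, a forkhead factor, are known to drive the goblet programme. AGR2 is a protein disulfide isomerase of the endoplasmic reticulum that mucins need in order to fold, and the GALNT enzymes add the first sugar of mucin O-glycans in the Golgi. FCGBP, CLCA1, the lectin ITLN and the trefoil peptide TFF3 are secreted with the mucins and become part of the gel, whereas MUC1 stays anchored in the apical membrane of many epithelial cells.

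Positions are those in the deposited tables, and the sources used here do not name their build. SPDEF lies at chr20:8654165-8672946, FOXA3 at chr14:52357709-52364274, AGR2 at chr4:25352329-25365680, GALNT6 at chr3:134524216-134551304 and GALNT12 at chr2:48708445-48743770. FCGBP lies at chr14:48443170-48484725. CLCA1 lies at chr1:62871850-62913569, ITLN at chr1:110286437-110294096, TFF3 at chr1:260467125-260470401 and MUC1 at chr1:103843146-103848674. GALNT6 shares 134 exon bases with CELA1 on the same strand, so a few of its reads could belong to either gene. ITLN has a related copy, ITLN2, at 0.116 to 15.9 CPM, and reads could have been split between the pair.

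Levels are given in CPM, counts scaled to the library size after TMM normalisation, with SD over the 2 libraries of a group. Total counts ran from 42372433 to 87651829 per library. The lowest count of any of the 10 genes in any library was 14 (FOXA3 in WT day 65 replicate 2). Counting error is small beside the larger differences between replicates. It is not small where replicates nearly agreed, as for SPDEF in CF at day 100, with counts of 382 and 388. EPCAM, a marker of epithelium, stood at 58.3 to 305 CPM and KRT5, a marker of basal cells, at 84.0 to 1147 CPM, while COL1A1, a collagen of connective tissue, stood at 599 to 18477 CPM, so the libraries held more than epithelium. 4 libraries held genes of other tissues: WT day 65 replicate 2 (thymus and skeletal muscle), WT day 80 replicate 2 (thyroid, with TG at 106018 CPM, and thymus), CF day 65 replicate 2 (liver) and CF day 80 replicate 1 (skeletal muscle). The WT day 100 pair carries 1 sample identifier, as does the CF day 147 pair, so each may be 1 animal, and WT day 65 replicate 2 shares an identifier with CF day 100 replicate 2. CFTR was counted in every library, at 4.30 to 37.8 CPM, which does not check the genotype labels because the CFTR lesion is not given. All p-values rest on the spread between such samples, and that spread may be technical.

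Per kilobase of exon, TFF3 had the highest level of the 10 genes, with a median over the 20 libraries of 2503 CPM per kb. AGR2 followed at 321 CPM per kb. ITLN at 57.4 and MUC1 at 53.6 CPM per kb, FCGBP at 23.7 and CLCA1 at 12.8 CPM per kb came next, and the order of these 4 changed between ages, since ITLN spanned 1180-fold and CLCA1 274-fold between its lowest and highest library. SPDEF (8.67 CPM per kb), GALNT6 (7.60) and GALNT12 (6.92) had medians close to each other, and FOXA3 (2.72 CPM per kb) was the lowest. GALNT12 and MUC1 varied least, by 5.26-fold and 6.95-fold over the 20 libraries.

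SPDEF, the regulator at the head of the goblet programme, was present at the youngest age and highest at birth. WT libraries had 12.8 and 8.30 CPM at day 65, 19.9 and 2.77 CPM at day 80, 31.5 and 34.1 CPM at day 100, 19.3 and 29.0 CPM at day 120, and 30.8 and 143 CPM at day 147. CF libraries had 8.74 and 5.74 CPM at day 65, 2.68 and 6.76 CPM at day 80, 5.81 and 5.75 CPM at day 100, 26.2 and 12.5 CPM at day 120, and 47.4 and 53.1 CPM at day 147. The genotypes were apart at day 100, where both CF libraries lay below both WT libraries, and overlapped at the other 4 ages. WT day 147 replicate 2 was 4.64 times its partner.

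FOXA3 is the partner regulator. Its WT levels were 1.77 and 0.281 CPM at day 65, 4.54 and 0.888 CPM at day 80, 4.03 and 5.74 CPM at day 100, 5.42 and 8.54 CPM at day 120, and 15.9 and 28.8 CPM at day 147. Its CF levels were 0.667 and 6.79 CPM at day 65, 0.740 and 1.23 CPM at day 80, 1.92 and 1.36 CPM at day 100, 6.53 and 5.13 CPM at day 120, and 7.07 and 7.47 CPM at day 147. CF lay below WT at day 100 and at day 147. The high CF value at day 65 is that of the library holding liver genes (summed liver markers 17500 CPM against 65.3 CPM in its partner), and FOXA3 is also a liver transcription factor; the part of liver RNA in this value was not tested.

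AGR2, which folds mucins, was abundant at every age. The WT libraries stood at 166 and 91.6 CPM at day 65, 322 and 43.9 CPM at day 80, 773 and 595 CPM at day 100, 445 and 698 CPM at day 120, and 385 and 1473 CPM at day 147. The CF libraries stood at 160 and 102 CPM at day 65, 92.4 and 189 CPM at day 80, 271 and 238 CPM at day 100, 712 and 405 CPM at day 120, and 530 and 587 CPM at day 147. As for SPDEF, the genotypes were apart at day 100 and overlapped at the other ages.

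GALNT6 had one of the smoothest courses, with replicates mostly close together. In WT it stood at 9.22 and 10.1 CPM at day 65, 16.9 and 7.49 CPM at day 80, 27.4 and 34.7 CPM at day 100, 46.7 and 42.5 CPM at day 120, and 48.5 and 52.0 CPM at day 147. In CF it stood at 9.73 and 6.95 CPM at day 65, 5.83 and 11.3 CPM at day 80, 31.8 and 25.0 CPM at day 100, 44.3 and 45.2 CPM at day 120, and 77.2 and 69.0 CPM at day 147. Both genotypes had similar levels up to day 120, and CF lay above WT at birth.

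GALNT12 belongs to the same enzyme family. Its WT levels were 22.4 and 18.8 CPM at day 65, 21.3 and 28.9 CPM at day 80, 38.6 and 39.3 CPM at day 100, 42.1 and 53.5 CPM at day 120, and 36.1 and 57.4 CPM at day 147. Its CF levels were 23.2 and 18.2 CPM at day 65, 14.2 and 21.2 CPM at day 80, 30.3 and 28.6 CPM at day 100, 44.5 and 44.0 CPM at day 120, and 74.5 and 64.8 CPM at day 147. CF lay below WT at days 80 and 100 and above it at birth.

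FCGBP, a large protein that binds the Fc part of IgG and is linked to mucin gels, was lower in CF at most ages by the levels of the libraries. WT libraries held FCGBP at 339 and 234 CPM at day 65, 154 and 57.5 CPM at day 80, 727 and 1170 CPM at day 100, 259 and 480 CPM at day 120, and 3695 and 3550 CPM at day 147. CF libraries held FCGBP at 143 and 131 CPM at day 65, 23.7 and 124 CPM at day 80, 103 and 91.4 CPM at day 100, 206 and 163 CPM at day 120, and 518 and 454 CPM at day 147. Both CF libraries lay below both WT libraries at 4 of the 5 ages, and the genotypes overlapped at day 80.

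CLCA1 is a secreted metalloprotease of mucus. Its WT levels were 35.6 and 5.35 CPM at day 65, 37.2 and 2.98 CPM at day 80, 31.5 and 91.4 CPM at day 100, 555 and 109 CPM at day 120, and 319 and 399 CPM at day 147. Its CF levels were 5.97 and 2.87 CPM at day 65, 4.23 and 3.96 CPM at day 80, 8.13 and 9.66 CPM at day 100, 158 and 131 CPM at day 120, and 787 and 677 CPM at day 147. CF lay below WT at day 100 and above it at birth, and the WT replicates were far apart at 4 of the 5 ages, by 2.90 to 12.5 times.

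ITLN encodes an intelectin, a lectin that binds sugars of microbes. The WT values were 1.80 and 1.16 CPM at day 65, 774 and 3.33 CPM at day 80, 369 and 315 CPM at day 100, 835 and 906 CPM at day 120, and 15.4 and 22.1 CPM at day 147. The CF values were 3.22 and 1.05 CPM at day 65, 6.33 and 12.4 CPM at day 80, 59.8 and 78.2 CPM at day 100, 1236 and 529 CPM at day 120, and 407 and 398 CPM at day 147. It was near its lowest level at day 65 in both genotypes, differed 232-fold between the WT libraries of day 80, and was high in all 4 libraries of day 120. At birth both WT libraries were back at a low level and both CF libraries were not.

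TFF3, a trefoil peptide that is secreted with mucins, was the most abundant of the 10 per length. In WT it stood at 669 and 695 CPM at day 65, 2693 and 255 CPM at day 80, 3323 and 2763 CPM at day 100, 1159 and 3665 CPM at day 120, and 800 and 3660 CPM at day 147. In CF it stood at 1546 and 1139 CPM at day 65, 588 and 1389 CPM at day 80, 1127 and 886 CPM at day 100, 2441 and 1037 CPM at day 120, and 2371 and 2892 CPM at day 147. CF lay above WT at day 65 and below it at day 100, and replicates differed by up to 10.6 times.

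MUC1, the membrane mucin, had the narrowest range after GALNT12. Its WT levels were 211 and 97.0 CPM at day 65, 140 and 41.7 CPM at day 80, 135 and 187 CPM at day 100, 207 and 144 CPM at day 120, and 217 and 162 CPM at day 147. Its CF levels were 182 and 145 CPM at day 65, 31.3 and 113 CPM at day 80, 143 and 116 CPM at day 100, 131 and 170 CPM at day 120, and 204 and 162 CPM at day 147. The genotypes overlapped at every age.

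**Figure D1:**
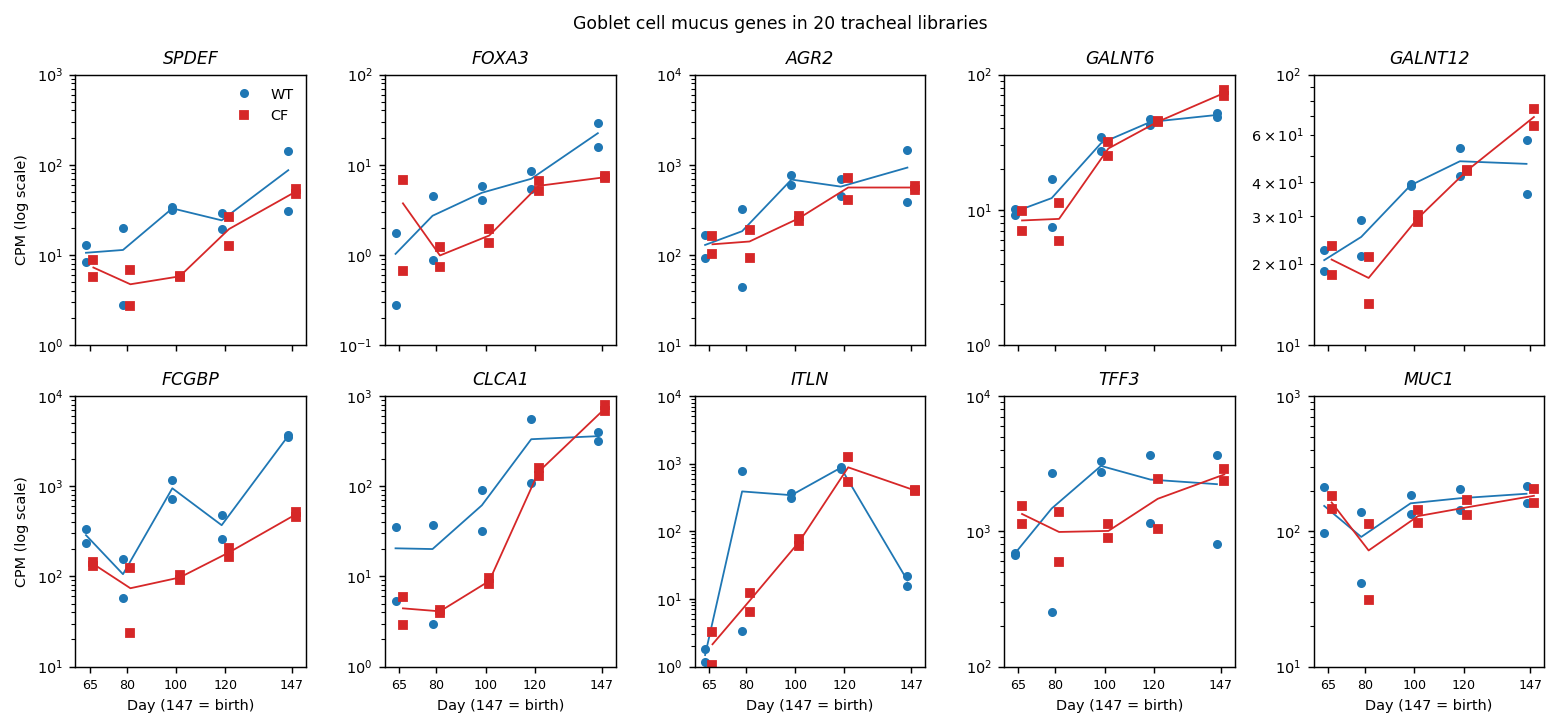
Level of each of the 10 genes in each of the 20 libraries (vertical axis, CPM on a log scale) by age in days (horizontal axis, 147 = birth), in WT and CF, with lines through the mean of the 2 libraries of a group. Both CF libraries lie below both WT libraries for FCGBP at every age but day 80, and ITLN at birth is at 15.4 and 22.1 CPM in WT and at 407 and 398 CPM in CF.

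Onset was described as the first age at which both libraries of a genotype lay above both of its day 65 libraries with a mean at least 4 times the day 65 mean. By this measure ITLN came first, at day 80 in both genotypes, where 2.38% of all tested genes met the measure in WT and 2.01% in CF. In WT the day 80 mean of ITLN rests on 1 library, at 774 CPM. The other, which held thyroid genes, was at 3.33 CPM, beside a day 65 mean of 1.48 CPM. AGR2 followed at day 100 in WT and day 120 in CF, FOXA3 at day 100 in WT, and TFF3 at day 100 in WT, although TFF3 did not meet it at later ages. At day 100 the measure held for 3.28% of all tested genes in WT and 1.82% in CF. GALNT6 and CLCA1 met it at day 120 in both genotypes, where 4.12% of genes did in WT and 3.17% in CF. SPDEF met it at birth in both genotypes and FCGBP at birth in WT, where 6.19% of genes did in WT and 4.76% in CF. In WT the birth mean of SPDEF rests largely on 1 library, at 143 CPM. The other was at 30.8 CPM, beside a day 65 mean of 10.5 CPM. With 2 times the day 65 mean SPDEF came on earlier, at day 100 in WT and day 120 in CF. FCGBP, FOXA3 and TFF3 did not meet it at any age in CF, and GALNT12 and MUC1 did not in either genotype. For FOXA3 in CF the day 65 mean, 3.73 ± 4.33 CPM (SD, n = 2), rests on the library with liver genes. An onset was found for 13 of the 20 pairs of gene and genotype, and for 16 with 2 times and 8 with 8 times the day 65 mean. ITLN in CF came on at day 100 instead of day 80 with 8 times the mean and also with library sizes alone. That scaling further moved GALNT6 in WT to day 147, left AGR2 in CF and TFF3 in WT without an onset, and gave 11 onsets in all. The later onset of AGR2 in CF than in WT is a description of these means and was not tested.

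Each later age was then tested against day 65 over the mean of the genotypes. These comparisons share the 4 libraries of day 65, of which 2 hold other tissues. At day 80 against day 65 edgeR's quasi-likelihood test, adjusted by Benjamini and Hochberg, called 0 of the 10 genes (percent called of all tested genes, 0). An unadjusted p under 0.05 was found for 3 of the 10, beside 4748 of all 20097 tested genes. These were ITLN, which was higher, and FCGBP (-1.17 ± 0.44 log2, SE) and MUC1 (-0.97 ± 0.42), which were lower. DESeq2 called 1 of the 10, ITLN. ITLN had a log2 fold change of 5.08 ± 1.06 (SE; adjusted p = 0.127, edgeR). Without the 4 libraries holding other tissue ITLN was at 5.34. That fit left 1 library in each group of days 65 and 80, the one of WT day 80 being that at 774 CPM. The spread at these ages was then not measured.

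At day 100 against day 65, 3 of the 10 genes were higher, against 2.29% of all tested genes. ITLN rose by 6.43 ± 1.13 log2 (SE; adjusted p = 0.00775), GALNT6 by 1.73 ± 0.26 (adjusted p = 0.00408) and GALNT12 by 0.71 ± 0.19 (adjusted p = 0.0463, all by edgeR's quasi-likelihood test). AGR2 had a log2 fold change of 1.68 ± 0.56 and did not pass (adjusted p = 0.0951, edgeR). The GALNT12 call was lost in 13 of the 20 fits that each left out 1 library, all but those without a library of WT day 80, WT day 147 or CF day 80 or without WT day 120 replicate 2, and in 7 of 9 other settings. The log2 fold change of GALNT12 over these ran from 0.56 to 0.81. The count was 1 without WT day 65 replicate 1, without WT day 65 replicate 2 or without CF day 65 replicate 2.

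At day 120 against day 65, 5 of the 10 genes were higher, against 4.04% of all tested genes. ITLN rose by 8.94 ± 1.26 log2 (adjusted p = 0.00177) and CLCA1 by 4.52 ± 0.83 (adjusted p = 0.00693, edgeR). The enzymes followed at smaller folds: GALNT6 rose by 2.32 ± 0.27 log2 (adjusted p = 5.90e-04), AGR2 by 2.12 ± 0.56 (adjusted p = 0.0388) and GALNT12 by 1.16 ± 0.19 (adjusted p = 0.00397, edgeR). SPDEF, at 1.31 ± 0.57, did not pass (adjusted p = 0.181, edgeR). The AGR2 call was lost in 14 of the 20 fits that left out 1 library, all but those without a library of WT day 80, WT day 147 or CF day 80, and in 4 of 9 other settings, with log2 fold changes from 1.12 to 2.36. The count was 3 without CF day 65 replicate 2, the library with liver genes, where CLCA1 was also not called.

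By birth 8 of the 10 genes were higher than at day 65, against 8.77% of all tested genes, and none was lower, against 9.86%. The median log2 fold change of the 10 was 2.72, beside -0.03 over all tested genes. CLCA1 rose by 5.75 ± 0.88 log2 (SE; adjusted p = 7.94e-04) and ITLN by 5.61 ± 1.09 (adjusted p = 0.00363, edgeR). SPDEF, the regulator, rose by 2.92 ± 0.60 (adjusted p = 0.00527) and FOXA3 by 2.70 ± 0.73 (adjusted p = 0.0222, edgeR). FOXA3 was at 3.93 without CF day 65 replicate 2, the library that held liver genes (adjusted p = 0.00847, edgeR). Its call was lost without WT day 65 replicate 2 (2.31, adjusted p = 0.0771), WT day 147 replicate 2 (2.48, 0.0624), CF day 65 replicate 1 (2.26, 0.0584) or CF day 147 replicate 2 (2.71, 0.0535), with pairs of a shared identifier summed (2.74, 0.0692) and with the length slope (the trend of log2 CPM with gene length in a library) as a covariate (2.10, 0.0608, edgeR). That slope was fitted to log2 CPM less the gene's mean over all libraries. GALNT6 rose by 2.76 ± 0.27, FCGBP by 2.74 ± 0.47, AGR2 by 2.47 ± 0.57 and GALNT12 by 1.47 ± 0.20 log2, with adjusted p from 4.48e-05 to 0.00999 (edgeR). The AGR2 call was lost without WT day 65 replicate 2 or CF day 65 replicate 2. TFF3 (1.34 ± 0.66, adjusted p = 0.177) and MUC1 (0.23 ± 0.42, adjusted p = 0.744) did not pass in edgeR's test. In such bulk samples more cells of a type and more RNA per cell cannot be told apart. The markers of epithelium as a whole moved less: 1 of 14 was higher at birth than at day 65 and their median log2 fold change was 0.36.

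Within WT, 6 of the 10 genes were higher at birth than at day 65 (SPDEF, FOXA3, GALNT6, GALNT12, FCGBP and CLCA1), against 3.7% of all tested genes. FCGBP had a log2 fold change of 3.66 ± 0.69 (adjusted p = 0.00739) and ITLN, at 18.8 ± 4.73 CPM at birth after 1.48 ± 0.451 CPM at day 65 (SD, n = 2 each), 3.65 ± 1.41 (adjusted p = 0.119, edgeR). Within CF, 4 were higher (GALNT6, GALNT12, CLCA1 and ITLN), against 1.78% of all tested genes. There CLCA1 rose by 7.37 ± 1.34 log2 (adjusted p = 0.00623) and ITLN by 7.56 ± 1.68 (adjusted p = 0.0194), and FCGBP, at 1.82 ± 0.64, did not pass (adjusted p = 0.134, edgeR). In WT the SPDEF call was lost in 15 of the 20 fits that left out 1 library, all but those without a library of WT day 80 or CF day 80 or without WT day 147 replicate 1. The CLCA1 call was also lost in 15, all but those without a library of WT day 80 or WT day 120 or without WT day 147 replicate 1. The WT count was 1 without either WT day 65 library and 2 without WT day 147 replicate 2, and the CF count was 2 without CF day 65 replicate 1 and 1 without CF day 65 replicate 2. The difference between the developments was tested directly and edgeR called 0 of the 10 genes (0.00498% of all tested genes). An unadjusted p under 0.05 was found for 2 of the 10, beside 962 of all 20097 tested genes, and DESeq2 called 0. Estimates of this difference, CF minus WT, were 3.90 ± 1.86 log2 for ITLN, 3.24 ± 1.48 for CLCA1, -1.84 ± 0.88 for FCGBP and -3.46 ± 1.41 for FOXA3 (adjusted p = 0.914 for each, edgeR).

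**Figure D2:**
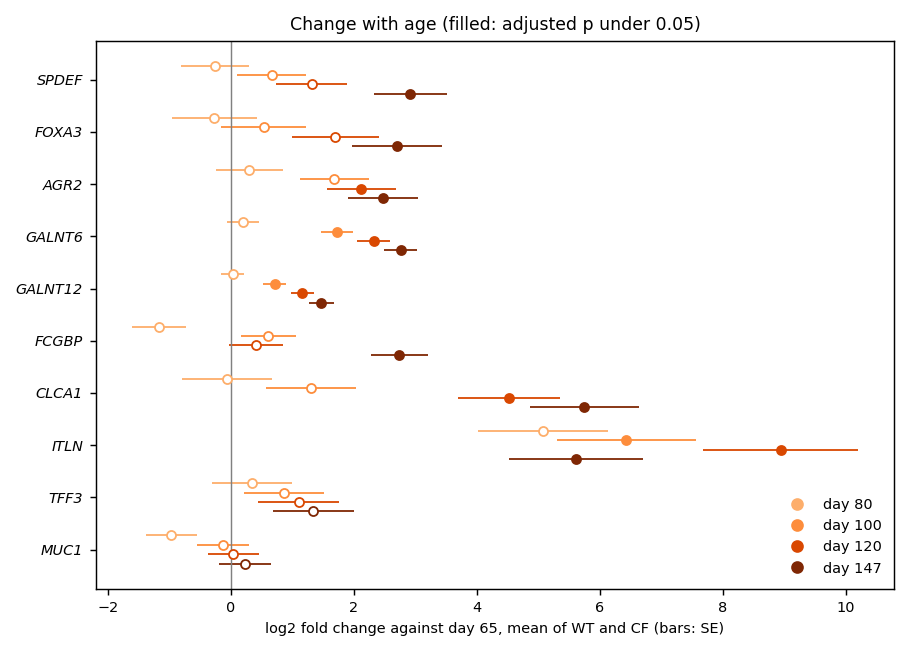
Log2 fold change of each gene at days 80, 100, 120 and 147 against day 65, over the mean of the genotypes, with bars of SE. ITLN and CLCA1 reach the highest values, 8.94 and 5.75, and MUC1 lies between -0.97 at day 80 and 0.23 at day 147.

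Averaged over the ages, FCGBP was lower in CF than in WT. Its log2 fold change was -1.75 ± 0.28 (SE; 95% interval -2.31 to -1.20; adjusted p = 0.0147, edgeR quasi-likelihood test), a level 3.37 times lower in CF. It was the 1 gene of the 10 called, against 0.766% of all tested genes called and 0.309% called lower. In 7 of the 20 fits that each left out 1 library the call was lost, with adjusted p from 0.0503 to 0.0605 in edgeR and fold changes from -2.10 to -1.59 over all 20. Those 7 left out CF day 65 replicate 1 or 2, CF day 100 replicate 1 or 2, CF day 120 replicate 2, or CF day 147 replicate 1 or 2. With the libraries of a shared identifier summed FCGBP was at -1.79 and not called (adjusted p = 0.128, edgeR).

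The other 9 genes did not pass over the mean of the ages. SPDEF had a log2 fold change of -1.08 ± 0.36 (95% interval -1.79 to -0.38; adjusted p = 0.236) and CLCA1 of -1.49 ± 0.47 (-2.41 to -0.58; adjusted p = 0.207, edgeR). DESeq2 called both, with adjusted p of 0.0443 and 0.0169, and these were, with FCGBP, the 3 genes at an unadjusted p under 0.05 in edgeR. Of all 20097 tested genes, 2254 had such a p. The enzymes that start O-glycans had averages near 0: GALNT6 was at -0.06 ± 0.16 (-0.38 to 0.26) and GALNT12 at -0.09 ± 0.12 (-0.32 to 0.15). For GALNT12 this average joins ratios of mean CPM, CF over WT, of 0.704 at day 80, 0.758 at day 100 and 1.49 at birth. For GALNT6 the ratio at birth was 1.45. FOXA3 (-0.61), ITLN (-0.54), AGR2 (-0.51), TFF3 (-0.29) and MUC1 (-0.17) had intervals that included 0. ITLN turned to 0.82 without WT day 80 replicate 1, the library with 774 CPM. TFF3 turned to 0.21 and MUC1 to 0.05 without that library. The median of the 10 genes was -0.53, beside 0.01 over all tested genes and -0.32 over the 14 markers of epithelium, of which 0 were called. How far the lower median of the 10 goes with that of epithelium was not tested.

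**Figure D3:**
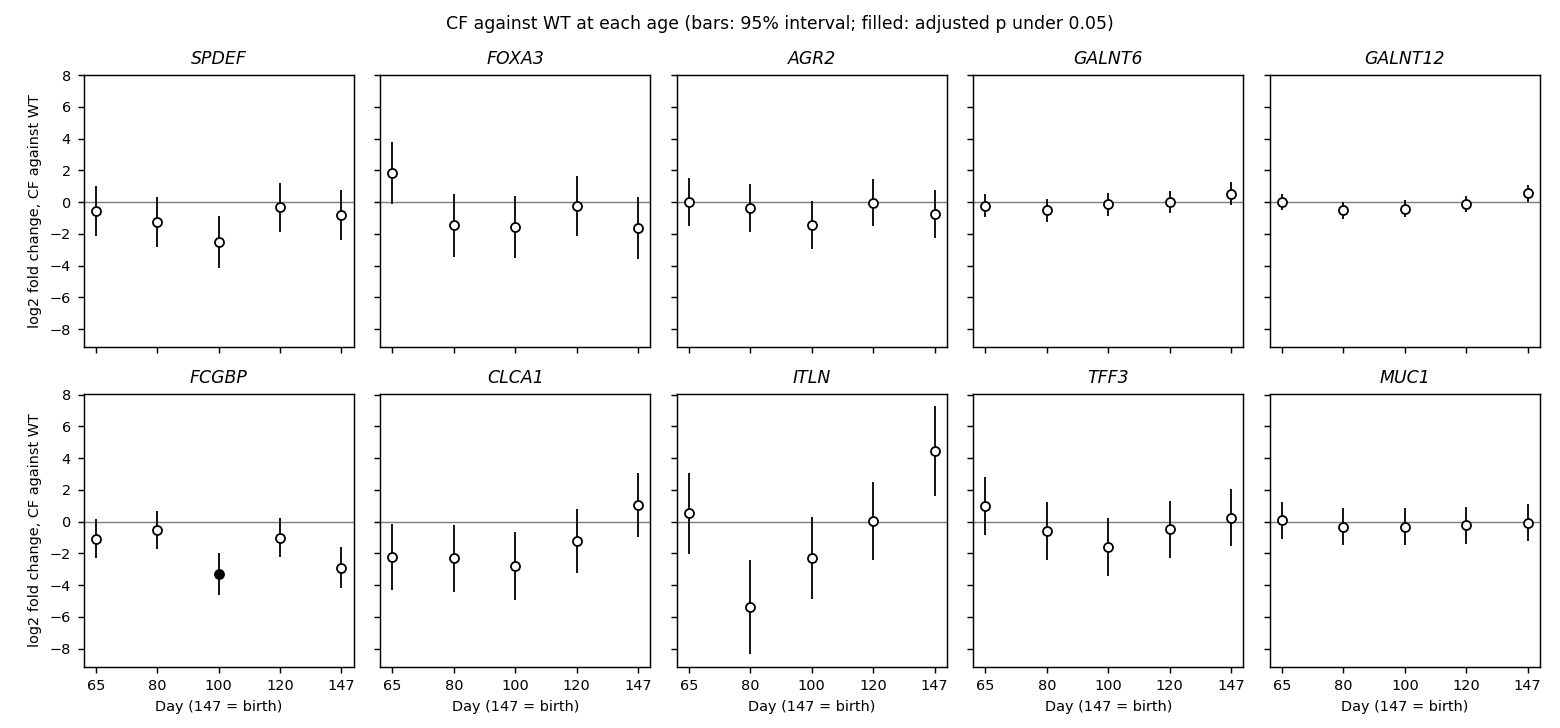
Log2 fold change of CF against WT for each gene at each age, with 95% intervals. FCGBP lies below 0 at all 5 ages, and ITLN is at -5.37 at day 80 and at 4.43 at birth.

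At day 65 edgeR called 0 of the 10 genes (0.00995% of all tested genes), with 0 at an unadjusted p under 0.05 (682 of all 20097 tested genes) and 0 called by DESeq2. FCGBP averaged 137 ± 8.56 CPM in CF and 287 ± 74.0 CPM in WT (SD, n = 2 each). Its libraries did not overlap, nor did those of TFF3, which was 1.97 times higher in CF; of all tested genes, 23.7% lay wholly below WT and 23.8% wholly above it at this age.

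At day 80 edgeR called 0 of the 10 (percent called, 0), with 1 at an unadjusted p under 0.05, ITLN, which DESeq2 also called. Of all 20097 tested genes, 1924 had an unadjusted p under 0.05 at this age. ITLN had a log2 fold change of -5.37 ± 1.51 (adjusted p = 0.278, edgeR), which rests on the single WT library at 774 CPM. GALNT12 was the 1 gene whose CF libraries both lay below WT, as 10.8% of all tested genes did, and none lay above WT, as 11.5% did. WT day 80 replicate 2 and CF day 80 replicate 1, the libraries with thyroid and muscle genes, had the lowest epithelium marker scores of the series, -0.65 and -1.58 (mean log2 deviation from the gene's mean over all libraries). In both, 9 of the 10 genes were below their partner library, the exceptions being GALNT12 in WT and CLCA1 in CF.

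At day 100 CF lay below WT for 8 of the 10 genes, all but GALNT6 and MUC1, and above it for none; 30.0% of all tested genes lay below and 40.5% above. The median log2 fold change of the 10 was -1.58, beside 0.12 over all tested genes. FCGBP averaged 97.1 ± 8.07 CPM in CF and 948 ± 313 CPM in WT (SD, n = 2 each). Its log2 fold change was -3.29 ± 0.68 (adjusted p = 0.0319, edgeR), and it was the 1 gene called, against 1.46% of all tested genes called and 0.0597% called lower. SPDEF averaged 5.78 ± 0.0453 CPM in CF and 32.8 ± 1.85 CPM in WT, a log2 fold change of -2.50 ± 0.84 that did not pass (adjusted p = 0.199, edgeR); DESeq2 called it. The other genes that did not overlap had log2 fold changes of -2.79 ± 1.09 (CLCA1), -2.31 ± 1.32 (ITLN), -1.60 ± 0.94 (TFF3), -1.57 ± 0.99 (FOXA3), -1.43 ± 0.78 (AGR2) and -0.40 ± 0.27 (GALNT12). GALNT6 was at -0.13 ± 0.36, and at 0.06 with library sizes alone, a scaling that moved the median of all genes by 0.20 at this age.

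The FCGBP call at day 100 was lost in 11 of the 20 fits that left out 1 library, with fold changes from -3.69 to -2.98 over all 20, and with the libraries of a shared identifier summed (-3.48, adjusted p = 0.244, edgeR). Those 11 left out either library of WT day 65, WT day 100, CF day 65, CF day 100 or CF day 147, or CF day 120 replicate 1. The fit without the 4 libraries holding other tissue had no replicates at the youngest ages. Its spread came from the later ages, so no p-value is given for ITLN. In that fit ITLN was at -2.31 at day 100, the same value as with all libraries. The WT libraries of this age differed from the CF libraries in tissue makeup: their epithelium scores were 0.59 and 0.66, against 0.07 and -0.03 in CF, and COL1A1 stood at 681 and 599 CPM in them against at least 3102 CPM in every other library. Of the 14 epithelium markers 0 were called at day 100 (1 at an unadjusted p under 0.05, beside 2479 of all 20097 tested genes, edgeR), with a median log2 fold change of -0.73. With the epithelium score as a covariate, FCGBP was at -2.51 ± 0.41 (adjusted p = 0.0132, edgeR), SPDEF at -1.48 ± 0.51, CLCA1 at -2.31 ± 1.16, ITLN at -1.40 ± 1.31, TFF3 at -0.54 ± 0.69 and AGR2 at -0.50 ± 0.53. FCGBP kept its call within this fit, and the differences of AGR2 and TFF3 were about 3 times smaller on the log2 scale. Genotype and tissue makeup went together at day 100, so the fit cannot tell them apart. The part of makeup in these differences was not tested.

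At day 120 edgeR called 0 of the 10 genes (percent called, 0), with 0 at an unadjusted p under 0.05 (279 of all 20097 tested genes) and 0 called by DESeq2. FCGBP averaged 184 ± 30.6 CPM in CF and 369 ± 156 CPM in WT (SD, n = 2 each) and was the 1 gene whose CF libraries both lay below WT, as 7.61% of all tested genes did; none lay above it, as 8.91% did. Its log2 fold change was -1.0 ± 0.62 (95% interval -2.23 to 0.22). CLCA1 was at -1.2 ± 1.03 (-3.22 to 0.82). GALNT6 (0.00), ITLN (0.02) and AGR2 (-0.03) had estimates nearest to 0. Their 95% intervals were -0.7 to 0.71, -2.44 to 2.48 and -1.53 to 1.47, so equal levels were not shown.

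At birth the secreted proteins were split. FCGBP averaged 486 ± 45.7 CPM in CF and 3623 ± 102 CPM in WT, ITLN 403 ± 6.32 CPM in CF and 18.8 ± 4.73 CPM in WT, and CLCA1 732 ± 77.9 CPM in CF and 359 ± 56.9 CPM in WT (SD, n = 2 each). CF lay below WT for FCGBP and FOXA3 and above it for ITLN, CLCA1, GALNT6 and GALNT12; 15.6% of all tested genes lay below and 15.6% above. edgeR called 0 of the 10 (0.0945% of all tested genes), with 2 at an unadjusted p under 0.05, FCGBP and ITLN, and DESeq2 called both. Such an unadjusted p was found for 1592 of all 20097 tested genes. FCGBP had a log2 fold change of -2.90 ± 0.66 (95% interval -4.20 to -1.60; adjusted p = 0.154) and ITLN of 4.43 ± 1.45 (1.59 to 7.26; adjusted p = 0.382, edgeR). CLCA1 was at 1.03 ± 1.03, GALNT12 at 0.57 ± 0.27 and GALNT6 at 0.54 ± 0.36. FCGBP was called with the epithelium score as a covariate (-3.31 ± 0.41, adjusted p = 0.0126, edgeR). The fit without the 4 libraries holding other tissue, none of them from birth, had no replicates at the youngest ages. Its spread came from the later ages, so no p-value is given for ITLN. In that fit ITLN was at 4.43 at birth, the same value as with all libraries. Because the CF libraries of this age share an identifier, their small SD may be technical.

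Whether the genotype difference changed with age was tested over all 5 ages at once. edgeR called 0 of the 10 genes (0.0697% of all tested genes), with 2 at an unadjusted p under 0.05, ITLN (adjusted p = 0.349) and FCGBP (adjusted p = 0.576), and DESeq2 called ITLN. Of all 20097 tested genes, 1464 had an unadjusted p under 0.05. Birth was then compared with day 120, a comparison added after the values of each library had been seen. In WT edgeR called 0 of the 10 (0.0348% of all tested genes), with 3 at an unadjusted p under 0.05 (1051 of all 20097 tested genes), and DESeq2 called FCGBP and ITLN. FCGBP had a log2 fold change of 3.29 ± 0.68 (adjusted p = 0.164) and ITLN of -5.54 ± 1.52 (adjusted p = 0.452, edgeR). In CF edgeR called 0 (percent called, 0), with 3 at an unadjusted p under 0.05 (914 of all tested genes) and 0 called by DESeq2, and ITLN was at -1.13 ± 1.27. The difference of these, CF minus WT, was 4.41 ± 1.85 for ITLN (adjusted p = 1.00, edgeR), and 0 genes of the 10 were called (0.00995% of all tested genes). An unadjusted p under 0.05 was found for 1 of the 10, beside 743 of all 20097 tested genes, and DESeq2 called 0.

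Replicates of a group differed along with the makeup and with the length profile of the libraries. In 9 of the 10 groups the library of higher epithelium score had more SPDEF, FCGBP and GALNT12, and in 8 more FOXA3, AGR2 and ITLN. The length slope is that of log2 CPM, less the gene's mean over all libraries, on log2 gene length. It is negative where short transcripts are favoured more than in the average library. The slope was lowest in WT day 147 replicate 2 (-0.243) and highest in WT day 65 replicate 1 (0.245). TFF3, the shortest of the genes at 509 exon bases, was higher in the library of lower slope in 10 of 10 groups and AGR2 (1101 bases) in 9, against 6 for FCGBP (9303 bases) and 4 for CLCA1 and MUC1. With the slope as a covariate the day 100 log2 fold change was -0.24 for TFF3, -0.44 for AGR2, -1.46 for SPDEF and -2.97 for FCGBP, which was called (adjusted p = 0.0334, edgeR). The part of RNA quality in these differences was not tested.

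**Figure D4:**
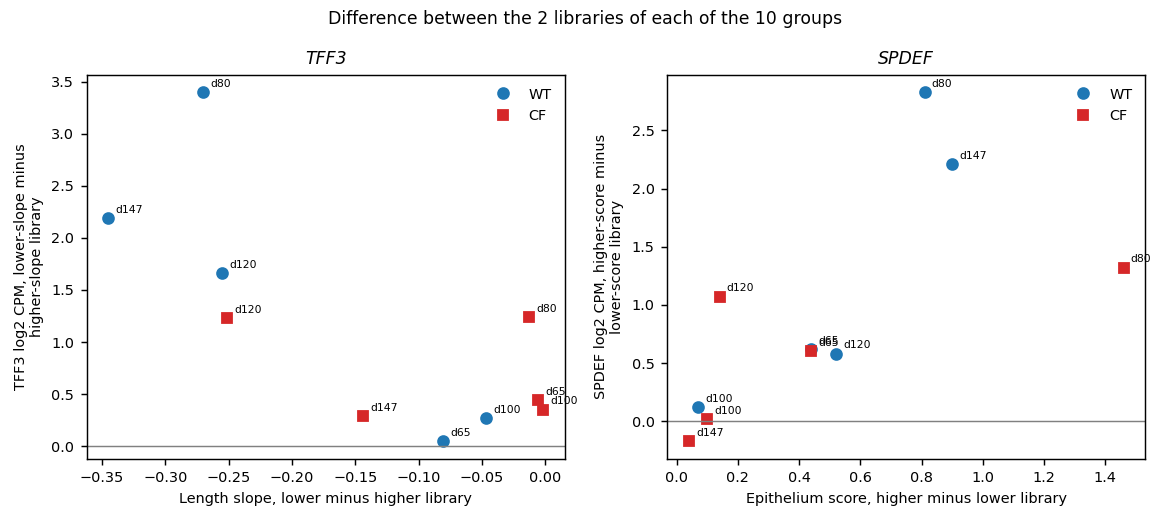
Difference in log2 CPM between the 2 libraries of each of the 10 groups, for TFF3 against their difference in length slope and for SPDEF against their difference in epithelium score. The library of higher epithelium score had more SPDEF in 9 of 10 groups, and the library of lower slope had more TFF3 in 10 of 10.

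The gel-forming mucins themselves, the main cargo of goblet cell granules, carried no symbol in the tables and were matched by their RefSeq gene number. MUC5AC stood at 0 to 7.21 CPM and MUC5B at 0 to 20.6 CPM over the 20 libraries. Per kilobase of the exons counted, the highest levels were 2.81 CPM per kb for MUC5AC and 15.3 for MUC5B. Whether the matched gene models cover the whole mucin transcripts was not tested. These levels may therefore be those of parts of the genes. At birth MUC5B was at 20.6 and 0.862 CPM in WT and at 19.1 and 2.43 CPM in CF, so the replicates of a group differed by more than the genotypes. MUC5B had a log2 fold change of 3.56 ± 1.19 at birth against day 65 that did not pass (adjusted p = 0.0540), and of 0.26 ± 0.71 between the genotypes, averaged over the ages (adjusted p = 0.943, edgeR). MUC5AC was at -0.05 ± 1.19 and -0.35 ± 0.78 in the same comparisons. In both genotypes at birth the library with the lower MUC5B level was that with the lower length slope (-0.243 against 0.102 in WT, -0.0708 against 0.0731 in CF).

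Among other genes of the mucus pathway, the secreted proteins of mucus moved most with age. Of 16 tested, 9 were higher at birth than at day 65 and 0 lower in edgeR's test (8.77% and 9.86% of all tested genes), with a median log2 fold change of 2.33 beside -0.03 over all genes. The largest changes were those of PIGR, the receptor that carries IgA across epithelium (9.64 ± 0.56, adjusted p = 5.09e-06), BPIFA1 (7.62 ± 1.02, adjusted p = 3.05e-04), ZG16B (7.43 ± 0.86, adjusted p = 1.18e-04) and LTF, lactoferrin (6.49 ± 0.54, adjusted p = 2.07e-05, edgeR). BPIFA1, a surfactant-like protein of airway secretions, stood at 155 and 1312 CPM in WT and at 3.18 and 2.47 CPM in CF at birth. At day 65 it stood at 0.279 and 0.120 CPM in WT and at 0.0993 and 0.419 CPM in CF, so its fold change above averages unlike rises. For CF against WT at birth edgeR called 0 of the 16 genes, BPIFA1 included (0.0945% of all tested genes). An unadjusted p under 0.05 was found for 4 of the 16, beside 1592 of all 20097 tested genes.

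For the remaining lists the shares to set beside the counts are those of all tested genes, 8.77% higher and 9.86% lower at birth than at day 65. Of 34 genes of mucin O-glycosylation, 6 were higher and 2 lower at birth, led by CHST4, a sulfotransferase (4.61 ± 0.45, adjusted p = 4.05e-05, edgeR), GALNT14 (3.0) and ST6GALNAC1 (2.67), with GALNT13 at -2.21. Of 24 goblet regulators, 5 were higher and 2 lower, among them CREB3L4 (2.44), HEY1 (1.43), XBP1 (1.29) and NOTCH3 (-1.60). Of 14 genes of mucin folding and packaging, 2 were higher and 0 lower (ERN2, the stress sensor of mucus cells, at 1.80, and KDELR3 at 0.48). Of 11 mucins, 2 were higher and 1 lower (MUC12 at 2.29, MUC13 at 2.26 and MUC4 at -3.65). Of 22 genes of granule release, 2 were higher and 2 lower (SYTL1 at 1.47, RAB27A at 0.72, MARCKS at -1.24 and STX2 at -0.50).

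Between the genotypes, averaged over the ages, these 6 lists held 1 called gene, CREB3L4, a transcription factor of the endoplasmic reticulum membrane, where 0.766% of all tested genes were called. In WT it stood at 6.25 and 5.85 CPM at day 65, 6.52 and 3.11 CPM at day 80, 13.9 and 16.8 CPM at day 100, 11.3 and 11.3 CPM at day 120, and 25.4 and 39.4 CPM at day 147. In CF it stood at 3.38 and 3.69 CPM at day 65, 1.20 and 3.53 CPM at day 80, 3.52 and 3.50 CPM at day 100, 10.3 and 7.58 CPM at day 120, and 18.9 CPM in the lower library of day 147. The CF libraries lay below the WT libraries at days 65, 100, 120 and 147, and the log2 fold change was -1.0 ± 0.20 (adjusted p = 0.0428, edgeR). In the other 5 lists edgeR called 0 genes, with 1 (mucins), 4 (O-glycosylation), 0 (folding and packaging), 2 (granule release) and 3 (secreted proteins) at an unadjusted p under 0.05, as 2254 of the 20097 tested genes were.

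CREB3L4 was also the gene most like SPDEF and FCGBP over the 20 libraries, by Pearson correlation of log2 CPM among 12200 named genes (r = 0.95 and 0.93). After it came CAPNS2 (0.92), SLC31A2 (0.92), PON1 (0.91) and BDKRB1 (0.91) for SPDEF, and SYNGR3 (0.89), PON1 (0.88), RASGEF1A (0.88) and RAP1GAP (0.87) for FCGBP. For CLCA1 they were SLC13A2 (0.94), PADI1 (0.94), SLC1A5 (0.92), SAMHD1 (0.92) and FAM177B (0.90). Among the 10 genes themselves the most alike pairs were GALNT6 with GALNT12 (r = 0.92), SPDEF with AGR2 (0.90) and GALNT6 with CLCA1 (0.89), and the least alike were FCGBP with ITLN (0.23) and ITLN with MUC1 (0.34). These correlations span ages and genotypes and share the libraries' depth and tissue makeup, so they describe the libraries only.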

How the data were processed

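The submitters' processing notes name STAR 2.6 and, from Subread, featureCounts 1.6.3. The authors deposited raw gene counts, 1 table for each genotype. The sources used here do not name the genome build, annotation release or strand setting. Of 8432 identifiers without a symbol, 573 were named from RefSeq gene numbers. Between 70.7% and 85.3% of counts from 1 to 20 in a library were even, so there may be fewer independent molecules than counts.

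Counts were fitted with edgeR 4.0.16 in R 4.3.3: filterByExpr, TMM, a robust quasi-likelihood model with 1 coefficient for each of the 10 groups over all 20 libraries, and Benjamini-Hochberg adjustment over 20097 genes at 0.05. SE is the log2 fold change over the root of F, and 95% intervals are 1.96 SE. Correlations used log2 CPM with a prior count of 2. DESeq2 1.42.0, other scalings, no filter, covariates, a replicate block, summed pairs and libraries left out were alternatives. The steps were tested on simulated data. Same-numbered replicates were not paired by the labels. The genes named are the 10 members in every library, up to 4 called genes of each list with the largest changes, MUC5AC, MUC5B, marker genes, and the 5 most alike genes of SPDEF, FCGBP and CLCA1. The genes and lists were chosen with earlier results of these data known.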

Additional observations from a re-analysis of the deposited data

Results flagged for a closer look

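In 4 of the 10 genes the CF libraries lay wholly on one side of the WT libraries at one age and wholly on the other side at another. The ratio of mean CPM, CF over WT, was 0.704 at day 80, 0.758 at day 100 and 1.49 at day 147 for GALNT12. It was 0.145 at day 100 and 2.04 at day 147 for CLCA1. For ITLN it was 0.202 at day 100 and 21.5 at day 147. TFF3 had a ratio of 1.97 at day 65 and 0.331 at day 100. The difference between those ages was not tested on its own. The test that the genotype difference is unequal over the 5 ages did not pass for GALNT12 (adjusted p = 0.792), CLCA1 (0.882), ITLN (0.349) or TFF3 (0.993, edgeR), and the day 100 sides coincide with the higher epithelium scores of the WT libraries of that age. For comparison, 30.0% of all tested genes lay wholly below WT at day 100 and 15.6% wholly above it at birth. At day 65, 23.8% lay wholly above WT, and at day 80, 10.8% lay wholly below it. The share of all tested genes that changed sides between ages was not counted. The 4 genes can therefore not be called unusual in this.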

How the results depend on the processing

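With 2 libraries a group, of which 2 pairs share an identifier, single calls depended on the spread estimate. Numbers of the 10 genes called are given, with the reported number first. With DESeq2 they went from 1 to 3 for the mean of all ages, from 0 to 1 at day 80, 1 to 2 at day 100 and 0 to 2 at day 147 (CF against WT), from 0 to 1 for day 80 against day 65, from 4 to 7 for birth against day 65 in CF, from 0 to 2 for birth against day 120 in WT, and from 0 to 1 for unequal genotype differences. With pairs of a shared identifier summed they went from 1 to 0 for the mean of all ages and at day 100, from 6 to 3 in WT and from 4 to 1 in CF development. Without the 4 libraries holding other tissue each group of days 65 and 80 had 1 library. The spread in that fit came from the later ages, so its counts of the 10 genes are not given. The epithelium covariate gave 1 at day 147 and 1 for birth against day 120 in WT, where the length slope also gave 1. WT development had 3 with library sizes alone and 3 with the length slope. Onsets fell from 13 to 8 with 8 times the day 65 mean. The replicate block gave 0 at day 100 (FCGBP adjusted p = 0.0506, edgeR) and changed the other counts by at most 1.5 times; same-numbered replicates had deviations correlated at -0.59 to 0.73 over 45 pairs of groups (median 0.02), so the numbers did not pair samples. Leaving out 1 library at a time, the counts ran from 0 to 1 (mean of the ages), 0 to 1 (day 80), 0 to 2 (day 100), 0 to 1 (day 147), 0 to 1 (day 80 against day 65), 1 to 4 (day 100 against day 65), 3 to 5 (day 120 against day 65), 1 to 8 (WT development), 1 to 5 (CF development), 0 to 1 (birth against day 120, WT) and 0 to 1 (unequal differences). Signs turned for values near 0 in the genotype difference averaged over ages: GALNT6 was 0.02 with library sizes alone, 0.03 with the epithelium covariate and -0.20 to 0.07 with 1 library left out, GALNT12 0.02 without the 4 libraries, TFF3 0.22 with the epithelium covariate, 0.16 with the length slope and -0.46 to 0.21 with 1 library left out, ITLN -0.75 to 0.82 and MUC1 -0.43 to 0.05. For birth against day 65, TFF3 was -0.15 with the length slope, and MUC1 -0.02 with library sizes alone and -0.07 without the 4 libraries. The causes were not tested. Over all tested genes, the mean of the ages gave 154 calls, and 829 with DESeq2, 745 with the length slope, 2 with pairs summed, 49 without the 4 libraries and 51 to 319 with 1 library left out. Day 100 gave 294, and 1210, 716, 0, 244 and 0 to 482 in the same order. Library sizes alone moved the median of all genes by 0.20 log2 at day 100 and by -0.16 to -0.34 in the comparisons with day 65. MUC5AC and MUC5B were at 0 counts in CF day 80 replicate 1, the library of the lowest epithelium score.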
